A study of Mus musculus with 17 samples.

Results

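The 10 genes described here encode small GTPases of the Ras superfamily, namely Rap2b with its relatives Rap2a, Rap2c and Rap1a, Rhob and Rhoc, the Rnd proteins Rnd1 and Rnd3, and the RGK proteins Gem and Rrad. They were taken by symbol from the deposited table of 38293 genes, and all 10 were found there. Rap2b was chosen by its measured values, since its mRNA was much less raised by ischemia-reperfusion injury (IRI) in CCN2 knockout (KO) than in wild-type (WT) kidneys, and the others as relatives of a gene with that pattern. A response is IRI minus sham, so all 4 groups entered the choice, and the values of these genes are given as a description, without p-values. Where it is said which of them the limma test over all genes called, that count only describes the chosen genes.

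Kidney cortex mRNA was sequenced from 5 CCN2 KO IRI, 4 WT IRI, 4 CCN2 KO sham and 4 WT sham mice, all taken 4 h after surgery. These are the kidneys that the labels put in a group, and any further CCN2 KO IRI kidney of the study was not analysed here. Per the study's methods, the mice were males of 12 to 14 weeks on a C57Bl6/J background, bred from CCN2 Flox/Flox and ROSA26CreERT2 parents. The CCN2 KO groups received 4 injections of tamoxifen in corn oil and the WT groups corn oil alone, followed by 14 days of washout, so that the drug and the deletion cannot be told apart. In the IRI groups both renal pedicles were clamped for 25 min, whereas the sham groups had the same operation without clamping. The ROSA26 locus drives Cre in most cell types, so the deletion is not limited to 1 cell type of the kidney.

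Small GTPases are molecular switches. They are turned on by guanine nucleotide exchange factors (GEFs), which load GTP, and turned off by GTPase-activating proteins (GAPs), which speed up its hydrolysis. Rap1 proteins control integrin adhesion and cell junctions, and Rap2 proteins signal through kinases of the MAP4K family and the cytoskeleton. Rhob and Rhoc act on actin fibers and vesicle traffic. Rnd proteins have hardly any GTPase activity, stay bound to GTP and oppose RhoA signaling. RGK proteins bind beta subunits of voltage-gated calcium channels and restrain the channel. RAP2B has been described as a target of p53 in human cells, and Rhob and Rnd3 as genes induced by cell stress.

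Values are log2 RPKM, that is log2 of read counts scaled to gene length and sequencing depth, which the authors had quantile normalized. A difference of 1 is a doubling. Levels are per length, so a comparison between genes depends on the gene lengths used, which are not given in the sources used here. The lowest value in the table, −3.32, stands for an RPKM of 0.1 or less. Genes were tested when at least 4 of the 17 kidneys exceeded a log2 value of 0, an RPKM of 1, which left 12608 genes. All 10 GTPase genes passed, but Rnd1 passed only through its 4 WT IRI kidneys, and therefore had to be higher there than elsewhere. Read totals were not at hand, so sequencing depth is unknown.

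The kidneys of 1 group correlated across genes at 0.915 to 0.961 (Pearson r) and those of different groups at 0.856 to 0.953. Kidney 33D6 stood apart from the other CCN2 KO IRI kidneys, with a score of −1.7 against 23.4 to 34.3 on the first principal component, which held 30.5% of the variance. Several values that rest on it are therefore also given without it. Ctgf, which encodes CCN2, was 5.04, 3.75, 4.16, 4.33 and 3.86 in CCN2 KO IRI kidneys and 4.95, 5.02, 4.41 and 3.92 in WT IRI kidneys, with a log2 difference of −0.35 (standard error (SE) 0.35, limma adjusted p = 0.525). The labels were thus not told apart by the gene-wide Ctgf value. Exons that remain after recombination can contribute to this value, but their part in it was not tested. The study also checked the deletion with another assay, which was not analysed here. In sham kidneys the Ctgf difference was −0.28 (adjusted p = 0.777). All IRI kidneys have titles that begin with 33, while 4 of the 8 sham kidneys have titles that begin with 32, and what this prefix stands for is not given. Proximal tubule markers summed to 4116 to 5729 RPKM in CCN2 KO IRI and 3300.0 to 4736 RPKM in WT IRI kidneys, and all 8 of them exceeded an RPKM of 1 in at least 1 kidney.

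Rap2b lies on the forward strand at chr3:61361638-61368430 of GRCm38 (GENCODE M21) as a single exon, with its coding part at 61365057 to 61365605. Its coding sequence shares 82.9% of bases with that of Rap2a, 71.2% with Rap2c and 59.1% with Rap1a. None of the 75-base stretches of the Rap2b transcript, the length of the reads, also occurs in Rap2a or Rap2c. However, 3702 bases of Rap2b are overlapped on the other strand by B430305J03Rik (chr3:61362250-61365951) and 260 by Gm37696, so that 56.8% of its 6719 distinct 75-base stretches also belong to one of them. The libraries kept the strand, but the strand setting of the counting is not given in the sources used here. B430305J03Rik was listed at the lowest value in 16 of 17 kidneys and reached −2.89 at most, and Gm37696 was not analysed here. The study's methods give union mode for the counting. Without the strand, that mode would assign reads from the shared bases to neither gene. B430305J03Rik lies within the Rap2b exon, so its low value cannot show that it is silent. For the other 9 genes between 0.0% and 4.48% of stretches occurred in another gene.

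Promoter sequences are shown for the genes with the largest IRI response in WT kidneys and a promoter on record, Rap2b and Rnd3, and, for comparison, for the close relative Rap2a and for Rhob, whose mean response differed less between the genotypes. They come from RefSeq (GRCm38.p6) and run from 250 bases before to 50 after the start of transcription. Of the 10 genes, 6 had such an entry. Capitals mark matches on either strand to any of 6 motifs. They were the cAMP response element with the letters TGACGTCA and the AP-1 motif with the letters TGAGTCA. The CCAAT box was searched by the letters of its name and the TATA box by the letters TATAAA. The CArG box of serum response factor and the half-site of p53 were searched as well. GC boxes, written GGGCGG, and the hypoxia response element, written ACGTG, were searched too but left in lower case. The Rap2b window is chr3:61364257-61364556 (forward strand), that of Rap2a chr14:120478211-120478510 (forward strand), that of Rnd3 chr2:51149062-51149361 (reverse strand) and that of Rhob chr12:8499960-8500259 (reverse strand).
Rap2b: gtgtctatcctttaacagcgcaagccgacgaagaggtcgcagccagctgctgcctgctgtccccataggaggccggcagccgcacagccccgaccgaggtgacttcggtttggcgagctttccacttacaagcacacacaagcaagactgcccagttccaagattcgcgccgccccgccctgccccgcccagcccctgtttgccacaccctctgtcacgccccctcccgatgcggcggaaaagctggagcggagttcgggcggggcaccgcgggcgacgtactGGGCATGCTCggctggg
Rap2a: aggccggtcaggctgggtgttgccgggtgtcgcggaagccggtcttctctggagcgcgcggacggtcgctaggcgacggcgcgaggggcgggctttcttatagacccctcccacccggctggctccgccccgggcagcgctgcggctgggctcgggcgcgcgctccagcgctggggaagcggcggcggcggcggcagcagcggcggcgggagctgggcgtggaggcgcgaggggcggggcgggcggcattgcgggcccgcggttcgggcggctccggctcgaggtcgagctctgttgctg
Rnd3: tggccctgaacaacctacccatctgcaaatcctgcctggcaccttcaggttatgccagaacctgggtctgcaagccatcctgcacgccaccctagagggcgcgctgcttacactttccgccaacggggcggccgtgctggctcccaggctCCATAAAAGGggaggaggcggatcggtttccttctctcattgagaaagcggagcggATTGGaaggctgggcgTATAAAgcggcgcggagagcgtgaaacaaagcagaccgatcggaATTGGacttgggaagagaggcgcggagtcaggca
Rhob: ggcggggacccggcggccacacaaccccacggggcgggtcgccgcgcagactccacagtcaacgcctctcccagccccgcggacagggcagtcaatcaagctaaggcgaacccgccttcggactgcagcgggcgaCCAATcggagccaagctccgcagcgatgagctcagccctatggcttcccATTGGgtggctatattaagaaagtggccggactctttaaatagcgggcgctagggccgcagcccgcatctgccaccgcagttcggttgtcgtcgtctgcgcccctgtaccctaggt

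The RefSeq start of Rap2b lies within the exon that GENCODE gives it, downstream of the GENCODE start. The Rap2b window held 1 p53 half-site, at base 34 after the start, a match found in 8.36% of 32851 mouse promoters of the same length. In Rnd3 a CArG box began 100 bases before the start (1.63% of promoters) and a TATA box 28 bases before it (13.6%), with CCAAT boxes at −44 and 17. Rhob had CCAAT boxes at −115 and −66, as did 37.4% of promoters at any position. Rap2a had none of the capitalized motifs but 6 GC boxes, against 4 in Rap2b and 1 each in Rnd3 and Rhob (a GC box occurs in 35.7% of promoters). Neither the cAMP response element (1.79%), nor the AP-1 motif (5.20%), nor the hypoxia response element (19.6%) was found in the 6 windows, which says only that these letters were not there. The shared promoter feature was a high GC content, from 59.7% in Rnd3 to 77.7% in Rap2a, with a median of 52.7% over all promoters.

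Rap2b was 1.19, 0.66, 1.81, 1.13 and −0.11 in the 5 CCN2 KO IRI kidneys (33D2 to 33D6), and 3.34, 3.17, 3.22 and 3.56 in the 4 WT IRI kidneys. The groups did not overlap, and the highest CCN2 KO IRI kidney lay 1.36 below the lowest WT IRI kidney. Means were 0.93 ± 0.71 (SD, n = 5) in CCN2 KO IRI and 3.32 ± 0.17 (SD, n = 4) in WT IRI kidneys, a log2 difference of −2.39 (SE 0.28), which is 5.23-fold lower. It ranked 54th from the lowest of the 12608 differences. Without 33D6 the difference was −2.13. Sham kidneys had 0.16, −0.13, −0.22 and −0.50 in CCN2 KO and −0.34, −0.10, −0.62 and 0.12 in WT mice. These groups overlapped, with a log2 difference of 0.06 (SE 0.30, confidence interval at 95% from −0.57 to 0.70). The gap between genotypes was therefore seen in the IRI kidneys.

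Relative to sham, the Rap2b level after IRI was higher by 1.11 (SE 0.28), or 2.15-fold, in CCN2 KO and by 3.55 (SE 0.30), or 11.8-fold, in WT kidneys. The log2 response in CCN2 KO kidneys was 31.1% of that in WT kidneys (38.4% without 33D6), and the difference of the responses was −2.45 (SE 0.41). Kidney 33D6, at −0.11, lay within the sham range, whereas the other 4 CCN2 KO IRI kidneys lay above every sham kidney. Ordered by level, the groups ran from WT sham and CCN2 KO sham, which did not differ beyond their spread, through CCN2 KO IRI to WT IRI. With only kidneys whose titles begin with 33, the responses were 1.29 in CCN2 KO and 3.57 in WT kidneys, with 2 sham kidneys a genotype. In bulk tissue, fewer cells of a type that carries the mRNA and less mRNA per cell cannot be told apart. Whether reads of the opposite strand entered the Rap2b value, or reads from the overlap were left out of it, was not tested.

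**Figure D1:**
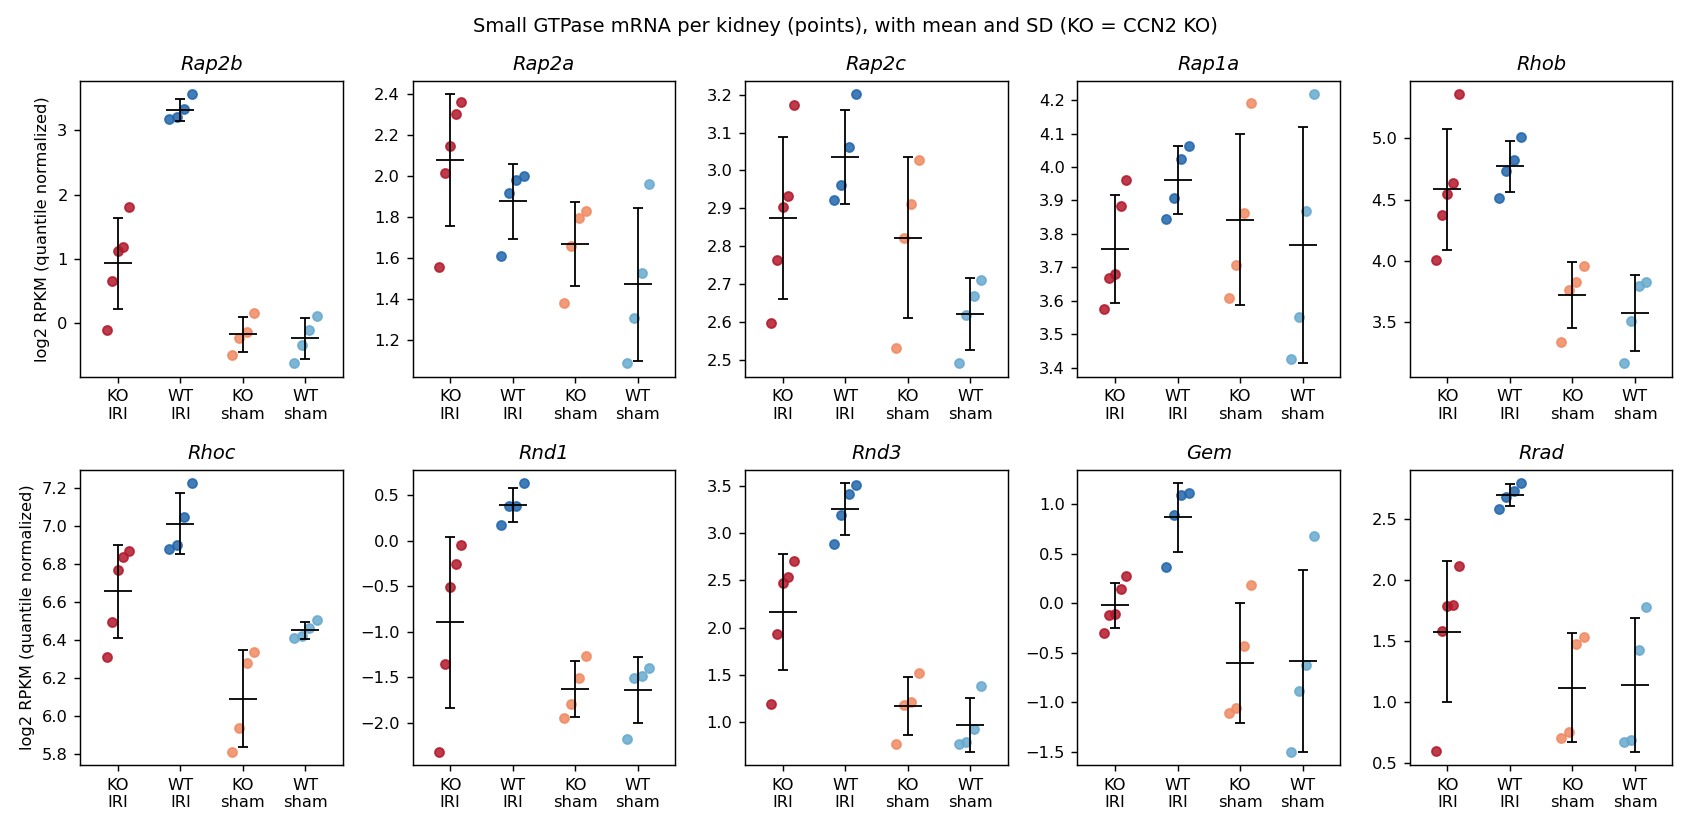
Log2 RPKM (vertical axis, own scale for each gene) of the 10 small GTPase genes in every kidney, by group, with the mean (bar) and SD (whiskers). CCN2 KO IRI kidneys lay below all WT IRI kidneys for Rap2b, Rhoc, Rnd1, Rnd3, Gem and Rrad, with Rap2b at −0.11 to 1.81 against 3.17 to 3.56.

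For Rap2a and Rap2c, the paralogs of Rap2b, the IRI groups of the genotypes overlapped. Rap2a was 2.01, 1.56, 2.30, 2.15 and 2.36 in CCN2 KO IRI kidneys and 1.98, 2.0, 1.61 and 1.92 in WT IRI kidneys. In sham kidneys Rap2a was 1.80, 1.38, 1.66 and 1.83 in CCN2 KO and 1.09, 1.31, 1.53 and 1.96 in WT mice. The difference between genotypes after IRI was 0.20 (SE 0.18), opposite in sign to that of Rap2b, and kidney 33D6 had the highest Rap2a value of its group and the lowest Rap2b value. The Rap2a response was 0.41 (SE 0.18) in CCN2 KO and 0.40 (SE 0.19) in WT kidneys, but 0.33 in CCN2 KO and 0.13 in WT kidneys with only titles that begin with 33. At baseline Rap2a had the higher log2 RPKM, with 1.67 ± 0.20 in CCN2 KO sham and 1.47 ± 0.37 in WT sham kidneys (SD, n = 4 each). Rap2b had −0.17 ± 0.27 and −0.23 ± 0.32 in these groups. In WT IRI kidneys the order was turned round, with 1.88 for Rap2a and 3.32 for Rap2b. The unknown gene lengths and the overlap on the Rap2b exon limit such comparisons of level between genes.

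Rap2c, the X-linked paralog, had 2.93, 2.60, 3.17, 2.90 and 2.76 in CCN2 KO IRI kidneys and 3.20, 2.96, 3.06 and 2.92 in WT IRI kidneys. Sham values of Rap2c were 2.91, 2.53, 2.82 and 3.03 in CCN2 KO and 2.62, 2.71, 2.49 and 2.67 in WT mice. Every WT IRI kidney was above every WT sham kidney, while the CCN2 KO groups overlapped. The response was 0.05 (SE 0.12) in CCN2 KO and 0.41 (SE 0.13) in WT kidneys, and the difference between the IRI groups was −0.16 (SE 0.12). Rap2c thus had the highest log2 RPKM of the Rap2 genes in the sham groups and in CCN2 KO IRI kidneys. In WT IRI kidneys the values were 3.32 for Rap2b and 3.04 for Rap2c, an order that the unknown gene lengths could change.

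Rap1a, a regulator of integrin adhesion, had the smallest IRI response in WT kidneys of the 10 genes. It was 3.57, 3.88, 3.68, 3.96 and 3.67 in CCN2 KO IRI kidneys and 4.06, 3.91, 4.02 and 3.84 in WT IRI kidneys. In sham kidneys it ranged from 3.61 to 4.19 in CCN2 KO and from 3.43 to 4.22 in WT mice, so that all 4 groups overlapped. Responses were −0.09 (SE 0.15) in CCN2 KO and 0.19 (SE 0.16) in WT kidneys. The second Rap1 gene, Rap1b, is no member of the 10 and was tested. Rap1b rose with IRI by 0.71 in CCN2 KO (SE 0.14, limma adjusted p = 0.00136) and by 0.89 in WT kidneys (SE 0.14, adjusted p = 0.000146). Its IRI levels were 6.17 in CCN2 KO and 6.17 in WT kidneys, and the difference of responses was −0.18 (SE 0.20, adjusted p = 0.704).

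Rhob and Rhoc had higher means after IRI in both genotypes. Rhob, an early-response gene whose protein sits on endosomes, was 5.36, 4.55, 4.63, 4.37 and 4.00 in CCN2 KO IRI kidneys and 5.01, 4.52, 4.82 and 4.73 in WT IRI kidneys. Its sham values were 3.96, 3.33, 3.83 and 3.76 in CCN2 KO and 3.16, 3.50, 3.79 and 3.83 in WT mice, all below every IRI kidney of the same genotype. The highest and the lowest Rhob value after IRI were both in the CCN2 KO group, which enclosed the WT group. Rhob responses were 0.86 (SE 0.22), or 1.82-fold, in CCN2 KO and 1.20 (SE 0.23), or 2.30-fold, in WT kidneys. Their difference was −0.34 (SE 0.31), and −0.19 without 33D6.

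Rhoc, a regulator of actin and cell movement, had the highest log2 RPKM of the 10 genes. It was 6.77, 6.84, 6.31, 6.87 and 6.50 in CCN2 KO IRI and 7.05, 7.23, 6.88 and 6.90 in WT IRI kidneys. Sham values were 5.94, 5.81, 6.34 and 6.28 in CCN2 KO and 6.42, 6.41, 6.51 and 6.46 in WT mice. For Rhoc the CCN2 KO kidneys lay below the WT kidneys without overlap after IRI and in sham, by 0.36 each (SE 0.13 after IRI, SE 0.14 in sham). With a like offset in both states, the mean response was 0.56 both in CCN2 KO (SE 0.13) and in WT kidneys (SE 0.14). The sham difference of −0.36 had a confidence interval at 95% from −0.65 to −0.07 and was not called. With only titles that begin with 33, the Rhoc offset in sham was −0.18 and the responses were 0.35 in CCN2 KO and 0.53 in WT kidneys, so the like responses rested on the other sham kidneys.

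Rnd1 and Rnd3 both had a smaller IRI response in CCN2 KO than in WT kidneys. Rnd3, which binds ROCK1 and opposes RhoA, was 2.70, 2.54, 1.93, 2.47 and 1.19 in CCN2 KO IRI kidneys and 3.19, 2.89, 3.51 and 3.42 in WT IRI kidneys. Its sham values were 1.52, 0.77, 1.18 and 1.21 in CCN2 KO and 0.77, 1.38, 0.93 and 0.79 in WT mice. The IRI groups did not overlap, and 33D6 alone of the CCN2 KO IRI kidneys lay within the range of sham. The difference between the IRI groups was −1.09 (SE 0.26), or 2.13-fold lower in CCN2 KO, and −0.84 without 33D6. Rnd3 responses were 1.0 (SE 0.26), or 2.0-fold, in CCN2 KO and 2.29 (SE 0.27), or 4.87-fold, in WT kidneys, so that 43.6% of the log2 response was seen in CCN2 KO (54.3% without 33D6).

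Rnd1 was scarce, with −0.05, −1.35, −0.50, −0.26 and −2.32 in CCN2 KO IRI kidneys and 0.39, 0.38, 0.63 and 0.18 in WT IRI kidneys. Sham values were −1.79, −1.26, −1.50 and −1.94 in CCN2 KO and −2.18, −1.49, −1.39 and −1.50 in WT mice. Only WT IRI kidneys exceeded an RPKM of 1, and 33D6 had the lowest Rnd1 value of all 17 kidneys. The IRI groups differed by −1.29 (SE 0.44), and by −0.94 without 33D6. Responses were 0.73 (SE 0.44) in CCN2 KO, or 1.09 without 33D6, and 2.04 (SE 0.47) in WT kidneys. With a pseudocount of 1 the difference of Rnd1 between the IRI groups was −0.54 and its responses were 0.26 in CCN2 KO and 0.81 in WT kidneys. The third gene of this branch, Rnd2, is no member of the 10, averaged 1.72 ± 0.15 (SD, n = 5) in CCN2 KO IRI and 1.89 ± 0.36 (SD, n = 4) in WT IRI kidneys, and passed no test (limma adjusted p = 0.63 between the IRI groups, 0.414 for the response in CCN2 KO and 0.442 in WT).

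For the RGK genes Rrad and Gem the mean was highest in WT IRI kidneys, followed by CCN2 KO IRI kidneys and the sham groups. Rrad was 1.80, 2.12, 1.79, 1.59 and 0.60 in CCN2 KO IRI kidneys and 2.73, 2.68, 2.80 and 2.58 in WT IRI kidneys. In sham kidneys Rrad was 1.54, 0.76, 0.70 and 1.48 in CCN2 KO and 0.69, 1.43, 0.67 and 1.78 in WT mice. The WT IRI kidneys lay close together and above all others, whereas the CCN2 KO IRI kidneys overlapped with sham. The IRI groups differed by −1.12 (SE 0.29), or 2.17-fold, and by −0.88 without 33D6. Rrad responses were 0.46 (SE 0.29) in CCN2 KO and 1.56 (SE 0.30) in WT kidneys, or 29.4% of the WT response on the log2 scale (45.1% without 33D6). Rrad, at chr8:104628070-104631327 (reverse strand), is overlapped by the antisense gene Gm33023 over 496 bases.

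Gem was 0.27, −0.30, 0.15, −0.11 and −0.11 in CCN2 KO IRI kidneys and 1.11, 1.09, 0.89 and 0.37 in WT IRI kidneys. Its sham values were spread widely, with 0.19, −1.06, −0.43 and −1.10 in CCN2 KO and −1.50, 0.69, −0.63 and −0.89 in WT mice. The IRI groups were apart, by as little as 0.10 between the nearest kidneys, and 1 WT sham kidney lay above all CCN2 KO IRI kidneys. The difference between the IRI groups was −0.89 (SE 0.38), with responses of 0.58 (SE 0.38) in CCN2 KO and 1.45 (SE 0.40) in WT kidneys. Unlike for Rrad, leaving out 33D6 hardly moved the difference (−0.87), but with a pseudocount of 1 it was −0.51, with Gem responses of 0.24 in CCN2 KO and 0.71 in WT kidneys. Of the other RGK genes, Rem1 was 0.18 ± 0.54 (SD, n = 5) in CCN2 KO IRI and −0.09 ± 1.02 (SD, n = 4) in WT IRI kidneys (limma adjusted p = 0.732), and Rem2 did not pass the filter, with no kidney above −1.19.

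**Figure D2:**
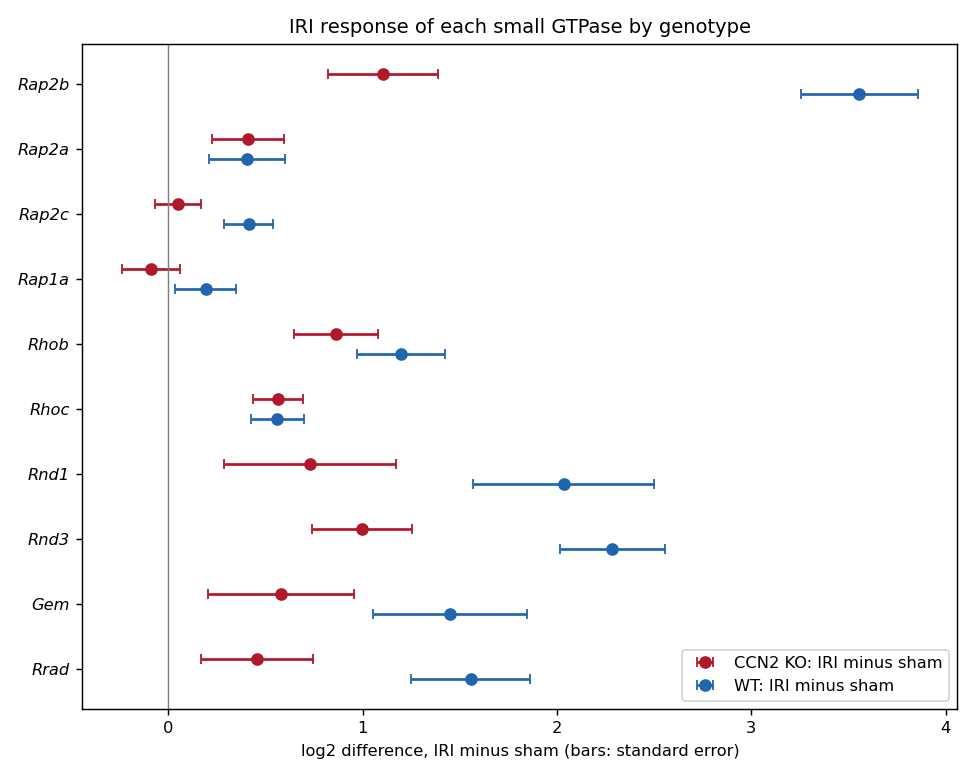
Log2 difference of IRI minus sham kidneys (horizontal axis) for each small GTPase gene in CCN2 KO (upper point) and WT mice (lower point), with limma's SE as bars. Rap2b had the largest response in WT kidneys, 3.55 against 1.11 in CCN2 KO, while Rap2a, with 0.41 and 0.40, and Rhoc, with 0.56 in both, had nearly equal mean responses in both genotypes over all sham kidneys.

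Set side by side, the 5 genes with the largest response in WT kidneys (Rap2b, Rnd3, Rnd1, Rrad and Gem) had responses in CCN2 KO kidneys of 29.4% to 43.6% of the WT response, or 38.4% to 54.3% without 33D6. For Rhob it was 72.0%, for Rhoc 101% and for Rap2a 101%, or 84.1%, 108% and 83.4% without 33D6. For Rap2c it was 12.4% (19.0% without 33D6) of a WT response of only 0.41. Of the 12608 genes tested, 639 (5.07%) were called lower in CCN2 KO than in WT kidneys after IRI at an adjusted p under 0.05, and 907 (7.19%) higher. Rap2b, Rnd3 and Rrad were among the lower, and 0 of the 10 among the higher. Leaving out WT IRI kidney 33C3 or 33C4 left 1 of the 3, Rap2b. For 913 genes (7.24%) the 5 CCN2 KO IRI values all lay under the 4 WT IRI values, and these included 6 of the 10. The genes were chosen with this contrast in view, and nothing is read from these counts.

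For the response in CCN2 KO kidneys, 1800 genes (14.3%) were called higher and 1663 (13.2%) lower after IRI. Rap2b, Rhob, Rhoc and Rnd3 were among the higher and 0 among the lower. With only titles that begin with 33, 1 of these 4 was called. In 1446 genes (11.5%) every CCN2 KO IRI kidney exceeded every CCN2 KO sham kidney, which among the 10 held for Rhob. In WT kidneys 2458 genes (19.5%) were called higher and 2558 (20.3%) lower. All but Rap2a and Rap1a were among the higher, and 0 of the 10 among the lower. For 2372 genes (18.8%) every WT IRI kidney exceeded every WT sham kidney, including 7 of the 10. The difference of responses was called lower for 7 genes (0.0555%), of which Rap2b was 1, and higher for 16 (0.127%), of which 0 were among the 10. Rap2b was chosen for this very difference, so its call is no finding. That call was absent without any 1 of WT sham 32A1 or 33A1 or WT IRI 33C1 or 33C4 (0 of the 10 then called). In sham kidneys limma called 0 genes higher and 0 lower (0% each), with 1640 genes at an unadjusted p under 0.05.

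Among the 9 IRI kidneys the inducible genes also varied from kidney to kidney. Kidney 33D6 had the lowest CCN2 KO IRI value for 5 of the 10 genes (Rap2b, Rnd1, Rnd3, Rrad and Rhob), and 33D3 for 3. Over the 17 kidneys, Pearson's r with Rap2b was 0.91 for Rnd3, 0.91 for Rnd1, 0.89 for Rrad, 0.77 for Rhob and for Gem, 0.73 for Rhoc and 0.67 for Rap2c, against 0.37 for Rap2a and 0.34 for Rap1a. Within the 9 IRI kidneys it was 0.90 for Rrad, 0.87 for Rnd1 and 0.84 for Rnd3 and for Gem, 0.64 for Rap2c, 0.59 for Rhoc, 0.57 for Rap1a, 0.44 for Rhob and −0.34 for Rap2a. These values describe kidneys that fall into groups and share the normalization, so that differences between group means enter them.

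**Figure D3:**
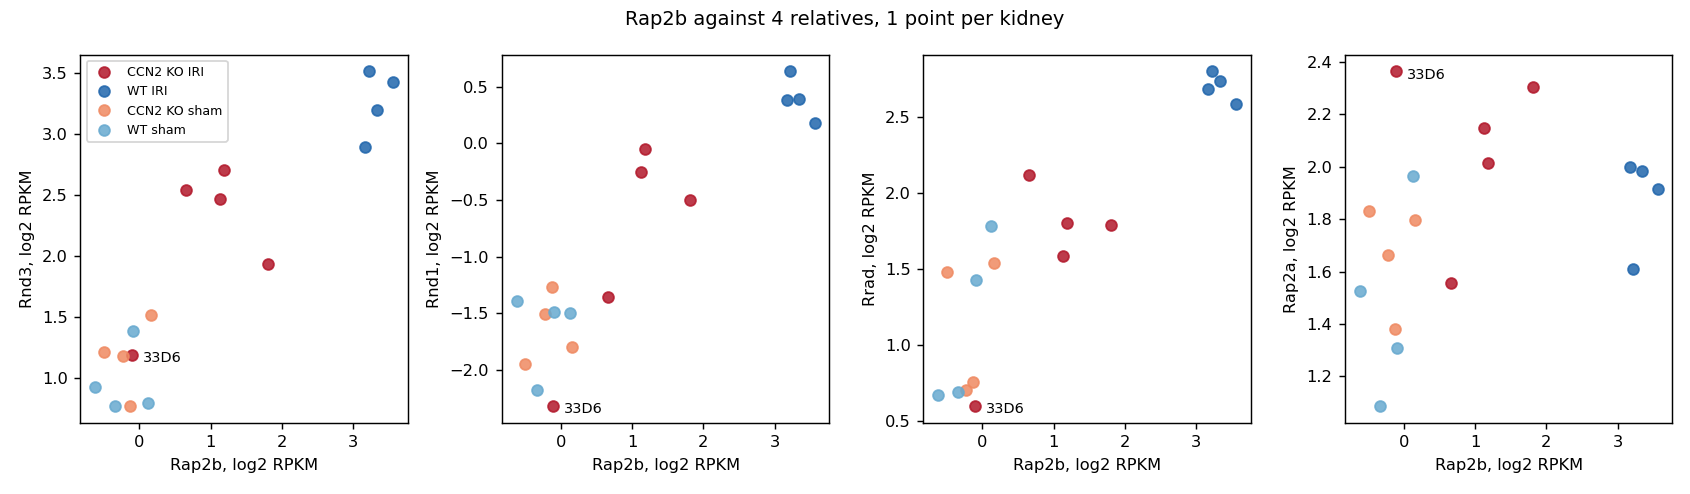
Log2 RPKM of Rap2b (horizontal axis) against Rnd3, Rnd1, Rrad and Rap2a (vertical axes), 1 point per kidney, colored by group, with kidney 33D6 marked. For Rnd3, Rnd1 and Rrad the WT IRI kidneys lay apart at the upper right. Kidney 33D6 lay within the sham range for Rnd3 and below every sham kidney for Rnd1 and Rrad. For Rap2a, with r of 0.37 over 17 kidneys, 33D6 was the highest.

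Likeness to Rap2b was taken over 10796 tested genes with a mean log2 value above 0, with predicted genes and clone names left out. The 10 with the most similar pattern over the 17 kidneys were Vmp1 (Pearson's r 0.97), Cebpb (0.96), Tmem41b (0.96), Ier2 (0.95), Pdlim7 (0.95), Btg1 (0.95), F3 (0.95), Btg2 (0.95), Mapk8 (0.94) and Gnpnat1 (0.94). They range from autophagy membrane proteins (Vmp1, Tmem41b) and early-response genes (Ier2, Btg1, Btg2) to a bZIP transcription factor (Cebpb), tissue factor (F3) and a stress kinase (Mapk8). Of the 10796 genes, 94 had an r above 0.9. Without 33D6, 8 of the 10 stayed among the 10 highest. Within the IRI kidneys 2 did, and by Spearman's rank correlation 0 did, so the order within this set depends on the measure.

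The regulators of Rap proteins were tested as lists drawn up by function, with earlier results of these data known. Of 7 GAPs for Rap, 5 were higher in CCN2 KO than in WT kidneys after IRI and 0 lower, with a median log2 difference of 0.69. Over all genes tested 7.19% were higher and 5.07% lower, with a median of 0.02. These shares are the background for the other lists too in this comparison of the IRI groups. Rap1gap was 3.16, 3.32, 3.75, 2.99 and 4.13 in CCN2 KO IRI kidneys and 2.82, 2.69, 2.42 and 2.60 in WT IRI kidneys, without overlap. Its log2 difference was 0.84 (SE 0.19, limma adjusted p = 0.0126), and 0.67 without 33D6. In sham kidneys Rap1gap was 4.15 in CCN2 KO and 4.11 in WT mice, and it fell by 0.68 with IRI in CCN2 KO (adjusted p = 0.0128) and by 1.48 in WT kidneys (adjusted p = 2.61e-05), a difference of responses of 0.79 that did not pass (SE 0.27, adjusted p = 0.19). The Rap1gap call in CCN2 KO was lost with the title prefix as a covariate (−0.59, adjusted p = 0.0644), with prefix 33 only (−0.50, adjusted p = 0.166) and with only these groups in the fit (adjusted p = 0.0528).

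Sipa1l3, a GAP of the SPA1 family, was 2.93, 2.84, 3.07, 2.83 and 3.49 in CCN2 KO IRI kidneys and 2.49, 2.46, 2.14 and 2.06 in WT IRI kidneys, again without overlap. It was higher by 0.75 (SE 0.15, adjusted p = 0.00807), and by 0.63 without 33D6. Of the family, Sipa1l1 (0.53, adjusted p = 0.0234) and Sipa1 (0.60, adjusted p = 0.033) were higher as well, and so was Rap1gap2 (0.69, adjusted p = 0.0254). Rasa3 and Sipa1l2 did not pass (0.70 and 0.19, adjusted p = 0.165 and 0.575). The CCN2 KO IRI group thus had a lower mean of Rap2b and higher means of several Rap GAPs, and a link between them was not tested. Kidney 33D6 had the lowest Rap2b and the highest Rap1gap and Sipa1l3 values of its group. Over all genes, however, 33D6 scored −1.7 on the first principal component, between the sham and the other CCN2 KO IRI kidneys. Of the 5 calls, 2 held without 33C3, 33C4 or 33D6, and 3 without 33D2 or 33D4. Endothelial markers moved in the same comparison, with 5 of 8 higher and summed levels of 48.5 to 72.3 RPKM in CCN2 KO IRI against 16.3 to 51.6 RPKM in WT IRI kidneys. Of markers of the thick ascending limb 3 of 5 were higher, with sums of 574 to 1138 RPKM in CCN2 KO IRI against 221 to 437 RPKM in WT IRI kidneys. Of 5 tested markers of fibroblasts and pericytes 3 were higher, with sums of 16.1 to 28.7 RPKM in CCN2 KO IRI against 5.43 to 13.2 RPKM in WT IRI kidneys, and Lum, a sixth, stayed below an RPKM of 1 in every kidney. The collecting duct markers were mixed, with a median log2 difference of 0.18 (from −0.87 to 0.76). Of these 6, 1 was lower and 0 higher. Their sums were 135 to 287 RPKM in CCN2 KO IRI against 272 to 329 RPKM in WT IRI kidneys. Of 5 podocyte markers 0 were called, but all differences were positive, from 0.44 to 0.96 (median 0.71). Of 4 smooth muscle markers 0 were called, with a median of −0.11. Of 8 proximal tubule markers 2 were higher and 0 lower, with differences from 0.15 to 0.89 (median 0.30). The part of these cell types in the values of the Rap GAPs and of the 10 genes was not tested.

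**Figure D4:**
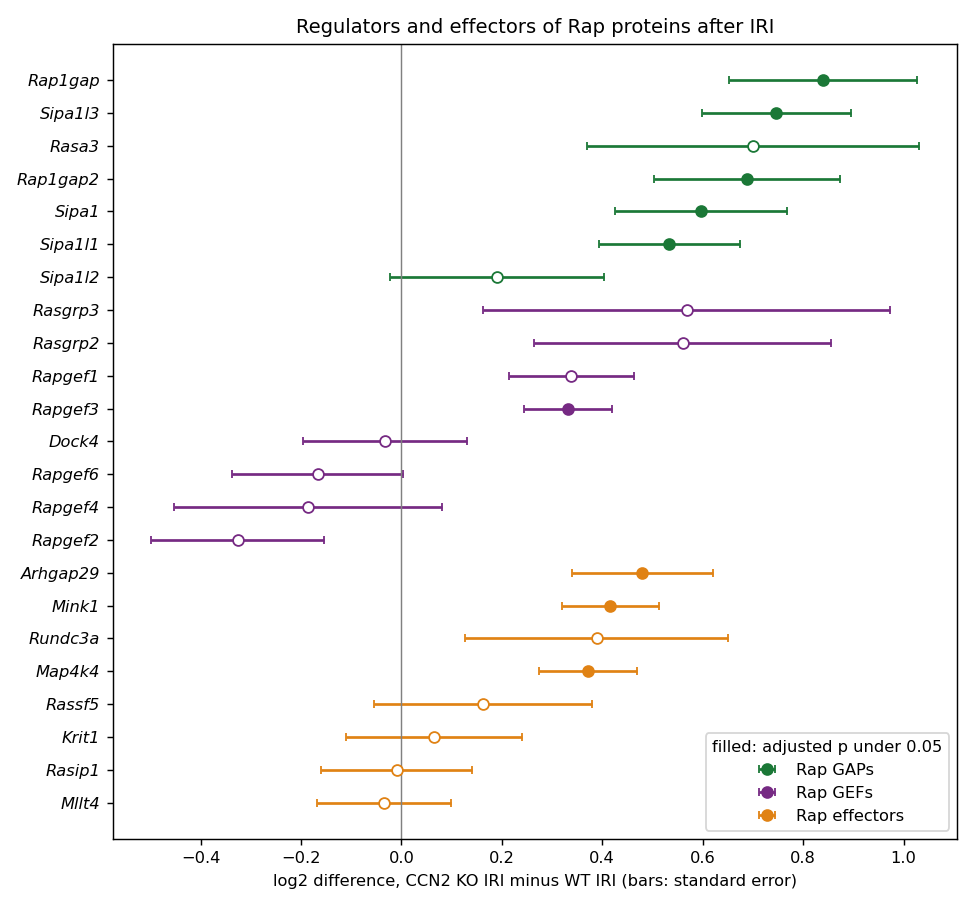
Log2 difference of CCN2 KO IRI minus WT IRI kidneys (horizontal axis) for each tested Rap GAP, Rap GEF and Rap effector gene, with limma's SE as bars and filled points for genes with an adjusted p under 0.05. All 7 GAPs lay above 0, 5 of them past the threshold, whereas the GEFs lay on both sides.

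Of 8 tested Rap GEFs, 1 was higher in CCN2 KO than in WT kidneys after IRI, the cAMP sensor Rapgef3 (0.33, SE 0.09, limma adjusted p = 0.0239), and 0 were lower, with a median of 0.15. Of 8 tested effectors of Rap proteins, 3 were higher and 0 lower, with a median of 0.27. They included both MAP4K kinases of Rap2 that were higher, Mink1 (0.42, SE 0.10, adjusted p = 0.0146) and Map4k4 (0.37, SE 0.10, adjusted p = 0.0233), and the GTPase-activating protein Arhgap29 (0.48, SE 0.14, adjusted p = 0.0352). Map4k4 rose with IRI in both genotypes, by 0.80 in CCN2 KO and by 0.38 in WT kidneys (adjusted p = 3.95e-05 and 0.00731). Each call between the IRI groups in these lists was lost without 33C3 or without 33C4 (without 33C4, adjusted p = 0.0624 for Mink1, 0.0796 for Map4k4, 0.0818 for Arhgap29 and 0.105 for Rapgef3). Those of Rapgef3 and Arhgap29 were also lost without 33C1 or 33D6, and those of Map4k4 and Arhgap29 without 33D2 or 33D4.

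Few other small GTPases passed the test between the IRI groups. Among 21 further tested genes of the Ras branch, 1 was higher and 2 were lower in CCN2 KO IRI kidneys, with a median of −0.03. Rasd1, a dexamethasone-induced Ras gene, was 1.68, 0.96, 1.13, 1.29 and 1.71 in CCN2 KO IRI kidneys and 2.78, 1.93, 2.74 and 2.89 in WT IRI kidneys, a difference of −1.23 without overlap (SE 0.38, limma adjusted p = 0.0437). The Rasd1 call was lost without the filter and in 11 of the 17 fits that left out 1 kidney, with an adjusted p of up to 0.136 without 33C4. Rit1 differed by −0.50 (SE 0.12, adjusted p = 0.0146) and Rasl11b by 0.56 (SE 0.14, adjusted p = 0.0215), and both calls were lost without 33C4 (adjusted p = 0.0678 and 0.0761), that of Rasl11b also without 33C1 or 33D4. IRI raised 5 and lowered 2 of the 21 in CCN2 KO kidneys, against 14.3% and 13.2% of all genes. In WT kidneys it raised 9 and lowered 3, against 19.5% and 20.3% of all genes.

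Rhoa, the protein that Rnd3 opposes, was 6.71, 6.57, 6.77, 6.79 and 6.72 in CCN2 KO IRI and 6.37, 6.53, 6.23 and 6.33 in WT IRI kidneys, a difference of 0.34 (SE 0.09, limma adjusted p = 0.0252). The Rhoa call was lost without 33C1, 33C3, 33C4, 33D4 or 33D6 (adjusted p of up to 0.0868).

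Of 6 calcium channel subunits to which RGK proteins relate, 3 passed the filter, and 0 of these passed the limma test between the IRI groups, adjusted or not (median 0.12). IRI lowered 2 of the 3 in CCN2 KO and 2 in WT kidneys, against 13.2% and 20.3% of all genes. Of 24 tested p53 targets, 7 were lower in CCN2 KO than in WT kidneys after IRI and 0 higher, against 5.07% and 7.19% of all genes, while the median was −0.07. The growth inhibitor Btg2, which is also among the genes most like Rap2b, differed by −1.55 (SE 0.28, limma adjusted p = 0.00476). Mdm2, which degrades p53, differed by −0.70 (adjusted p = 0.00756), Gadd45a by −1.84 (adjusted p = 0.00933) and the apoptosis gene Pmaip1 by −1.31 (adjusted p = 0.0128, or 0.0574 without 33C4). Without 33D6 the differences were −1.34 for Btg2, −0.59 for Mdm2, −1.42 for Gadd45a and −1.08 for Pmaip1. IRI raised 9 of the 24 in CCN2 KO and 11 in WT kidneys, and lowered 1 in each. Over all genes it raised 14.3% in CCN2 KO and 19.5% in WT kidneys, and lowered 13.2% and 20.3%. The study had looked at p53 signaling in these kidneys, so this list is not independent evidence. The difference of responses passed the limma test for 0 of the 107 tested genes on all functional lists, with 31 at an unadjusted p under 0.05 and 9 called with sample weights.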

How the data were processed

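Kidney cortex RNA of 17 mice was analysed in 4 groups given by the labels (genotype and injury state). Other kidneys of the study were not analysed here. The authors made strand-specific libraries of poly(A) RNA and read 75 bases from one end. Per their notes, STAR 2.4.2a served for alignment to GRCm38 and HTSeq 0.6.1p1 for counting per gene. The strand setting and the annotation of the counting are not given in the sources used here. The authors deposited quantile-normalized log2 RPKM values, so counts and depth were not at hand and no count model was used. The table has 30 columns of samples, of which 13 match no labelled sample and were not used, although the normalization may have drawn on them.

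A gene entered the tests if its log2 value was above 0 in 4 or more samples. Means of the 4 groups were fitted to all 17 samples with limma 3.58.1 in R 4.3.3 (eBayes with a variance trend), with Benjamini-Hochberg adjustment over 12608 genes and a threshold of 0.05. SE values are limma's. Each library is a separate mouse. The members, gene lists and tests were chosen with earlier results of these data known, and no p-values are given for the 10 genes described. From each list at most the 4 genes with the lowest adjusted p between the IRI groups were named, plus Sipa1 to complete a count, Rasa3 and Sipa1l2 after their values were seen, and Rap1b, Rhoa, Rnd2, Rem1 and Rem2 as close relatives. Some tested list genes count in the totals over all lists but are not reported here. Likeness was Pearson's r. The fit was tested on simulated data. Locations come from GENCODE M21 and promoters from RefSeq. The alternatives tried were other filters, a pseudocount of 1, samples centred on their median, weighted samples, other variance priors, fits of only 2 groups, the title prefix as covariate or as filter, and each sample left out.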

Additional observations from a re-analysis of the deposited data

Results flagged for a closer look

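Among 40 combinations of a gene and a group, 1 kidney stood far from the rest of its group. For Rnd1 in WT sham, replicate 32A1 was at −2.18 log2 RPKM and the next kidney at −1.50, a gap of 0.86 of the range of the 4 kidneys. About 1 in 20 such groups is expected to show such a gap by chance. No gene had more than 1 such group.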

How the results depend on the processing

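The groups share no replicate numbers, so no paired analysis was possible because no kidney of one group has a partner in another. The Rap2b difference between the IRI groups stayed negative in all 27 fits (−2.61 without 33D4 to −1.89 with a pseudocount of 1), as did those of Rap2c, Rap1a, Rhob, Rhoc, Rnd3 and Rrad, and those of Gem and Rnd1 where they passed the filter (26 and 22 fits), while Rap2a stayed positive. With the pseudocount of 1 the Rap2b response was 0.65 in CCN2 KO and 2.56 in WT kidneys and the difference of responses −1.91, and the difference between the IRI groups was −0.54 for Rnd1 and −0.51 for Gem. Of the 10 genes, 5 were called between the IRI groups with sample weights, and 1 to 3 with each kidney left out. For the CCN2 KO response 1 was called with title prefix 33 only, and for the difference of responses 0 with that prefix and 0 to 1 with each kidney left out.

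Of the genes on the lists, 26 were called between the IRI groups, and 6 to 29 with each kidney left out. In sham kidneys 0 were called, and 0 to 3 with each left out. For the CCN2 KO response 39 were called, 23 with the title prefix as a covariate and 24 with prefix 33 only. For the difference of responses 0 were called, 1 with the stricter filter, the pseudocount or the robust prior, 9 with sample weights and 0 to 3 with each kidney left out. Over all genes, the calls between the IRI groups numbered 1546, 3118 with sample weights, and 349 without 33C4, 600.0 without 33C3, 747 without 33D6, 863 without 33D4 and 951 without 33C1. The sham calls numbered 136 without 32B5, 6 with sample weights and 5 with prefix 33 only, those for the CCN2 KO response 3463, or 2122 with prefix 33 only and 2203 with the covariate, and those for the difference of responses 23, from 3 with prefix 33 only to 231 with sample weights. The causes were not tested. Depth is unknown and limits Rnd1 and Gem, near an RPKM of 1. It also limits Rap2b in sham kidneys, whose means stood for an RPKM of 0.89 in CCN2 KO and 0.85 in WT mice.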
